A study of Mus musculus with 13 samples.

Results

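Transcripts of the ATF4 branch of the integrated stress response were followed in Yumm1.7 cells, a mouse melanoma line, after exposure to ADAR1i-124, to 5-AZA-CdR or to both. The 10 genes are Atf4 itself, the transcription factor genes Atf5 and Ddit3, the stress regulators Trib3, Chac1, Ddit4 and Sesn2, and the amino acid enzymes Asns, Psat1 and Phgdh. They were picked by symbol from the table of 54532 genes, where 11 rows carry one of these symbols. The extra row is a second Ddit3 entry (ENSMUSG00000116429), which held 0 counts in all libraries.

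ADAR1i-124 is a small molecule described in the study as an inhibitor of ADAR1, the enzyme that changes adenosine to inosine in double-stranded RNA. 5-AZA-CdR (decitabine) is an inhibitor of DNA methyltransferases. Cells labelled WT received DMSO as vehicle, 10 µM ADAR1i-124 for 12 h, 1 µM 5-AZA-CdR for 72 h, or the combination. The labels give no dose or time for the combination. According to the text of the study it was 1 µM 5-AZA-CdR for the 72 h first and 10 µM ADAR1i-124 for the 12 h after that. For expression in total RNA the study also describes a combination with 1 µM ADAR1i-124. Total RNA was sequenced after depletion of ribosomal RNA, in 4 libraries. RNA of the same treatments was also digested with RNase I and DNase and precipitated with J2, an antibody to double-stranded RNA (4 libraries), or with Z22, an antibody to Z-RNA, the left-handed double helix (4 libraries). A single IgG library was the precipitation control, and the treatment of the cells behind it is not stated.

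The integrated stress response begins with kinases, among them PKR (Eif2ak2), which binds double-stranded RNA, that phosphorylate the initiation factor eIF2 and slow protein synthesis. Translation of Atf4 then increases because upstream reading frames in its mRNA are bypassed, and ATF4 with a C/EBP partner activates genes for amino acid supply, for redox balance and for stress signalling. Since ATF4 is controlled to a large part by translation, counts of its mRNA do not measure the protein. The question addressed here is whether transcripts of this branch differed between the treated and the DMSO cells.

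Each condition has 1 library, so no difference has a replicate check and no test was run. Values are counts scaled to a library total of 1e+06 (CPM). Changes are differences of log2(CPM + 0.5), a scale that shrinks the change of genes with few counts. Intervals are exact 95% binomial intervals of the ratio of counts between libraries. They cover counting error only and not the spread between cultures. Without molecular identifiers several reads can stem from 1 molecule, so the intervals can be too narrow even for counting error. Over the 12 libraries used, totals ran from 8167960 to 34571822 counts and 3 counts, the smallest number taken as detected, corresponded to 0.0868 to 0.367 CPM. The total RNA library of the combination was not used, because its counts follow the other strand. Among the precipitated libraries, Z22 under DMSO stood apart: 1 gene, Gm42418, which lies over ribosomal RNA sequence, took 34.9% of its counts, against 10.6% to 18.9% in the other precipitated libraries and 0.0299% to 0.334% in total RNA. Melanocyte markers were largely absent, since Mitf had 22.2 CPM under DMSO while Sox10, Pmel, Tyr, Tyrp1, Dct, Mlana and S100b did not exceed 0.735 CPM in any of the 12 libraries. Of 8 markers of leukocytes, endothelium and keratinocytes, Cdh5 had 3.70 CPM under DMSO, 17.8 under ADAR1i-124 and 81.1 under 5-AZA-CdR in total RNA, and the other 7 did not exceed 2.30 CPM. The part of Cdh5-expressing cells in the results was not tested. In bulk RNA, fewer cells of a type and less RNA per cell cannot be told apart.

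ATF4 and its C/EBP partners bind a composite element whose core, TGATGNAA, was searched on both strands in the RefSeq promoter table of GRCm38.p6, from 250 bases before to 50 bases after each gene start. All 10 genes had a promoter in the table, and 3 of them, Trib3, Chac1 and Asns, held the core. Of all 27025 genes in the table, 4.51% did. Gene starts here are those of RefSeq, which differ from the GENCODE starts given below. Asns's stretch lies within the GENCODE gene, and the Trib3 core lies upstream of the GENCODE start. The 3 matches are shown because this is the element through which ATF4 is known to act. The core is in capitals, each stretch is written 5′ to 3′ on the gene's strand, and TTNCATCA is the core read on the opposite strand.
Asns (chr6:7693214-7693243, minus strand, core starting 23 bases before the RefSeq start): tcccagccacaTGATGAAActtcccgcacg
Chac1 (chr2:119351038-119351067, plus strand, core starting 193 bases before the RefSeq start): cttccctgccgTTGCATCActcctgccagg
Trib3 (chr2:152344028-152344057, minus strand, core starting at base 15 after the RefSeq start): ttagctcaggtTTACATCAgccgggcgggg
A match describes the letters only, and for the other 7 genes the core was not in this window.

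Levels of the 10 genes were first compared per kilobase of annotated exon, in total RNA of the DMSO cells. Positions are those of the mm10 build in the GENCODE annotation. Psat1 (chromosome 19, 15904678 to 15947337) was the most abundant at 184 CPM per kb, followed by Atf4 (chromosome 15, 80255184 to 80257541) at 161, Phgdh (chromosome 3, 98313170 to 98339990) at 139 and Asns (chromosome 6, 7675169 to 7693254) at 131. A gap separated these from Atf5 (chromosome 7, 44812256 to 44816658) at 45.9, Ddit4 (chromosome 10, 59949669 to 59951834) at 34.1 and Chac1 (chromosome 2, 119351229 to 119354381) at 24.0 CPM per kb. Sesn2 (chromosome 4, 132492032 to 132510501) had 19.6 and Trib3 (chromosome 2, 152337422 to 152344032) 18.6 CPM per kb, and their counting intervals overlapped (18.5 to 20.7 and 17.2 to 20.02). Ddit3 (chromosome 10, 127290774 to 127296288) was the lowest at 5.90. After 5-AZA-CdR the order differed: Atf4 led at 56.2 CPM per kb, Ddit4 was next at 47.9, and Psat1 (29.7) and Atf5 (29.9) had overlapping intervals. After ADAR1i-124, Atf4 (118) and Psat1 (105) still led, while Chac1 at 48.4 CPM per kb stood above Sesn2 (18.1), Trib3 (13.9) and Ddit4 (11.3).

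**Figure D1:**
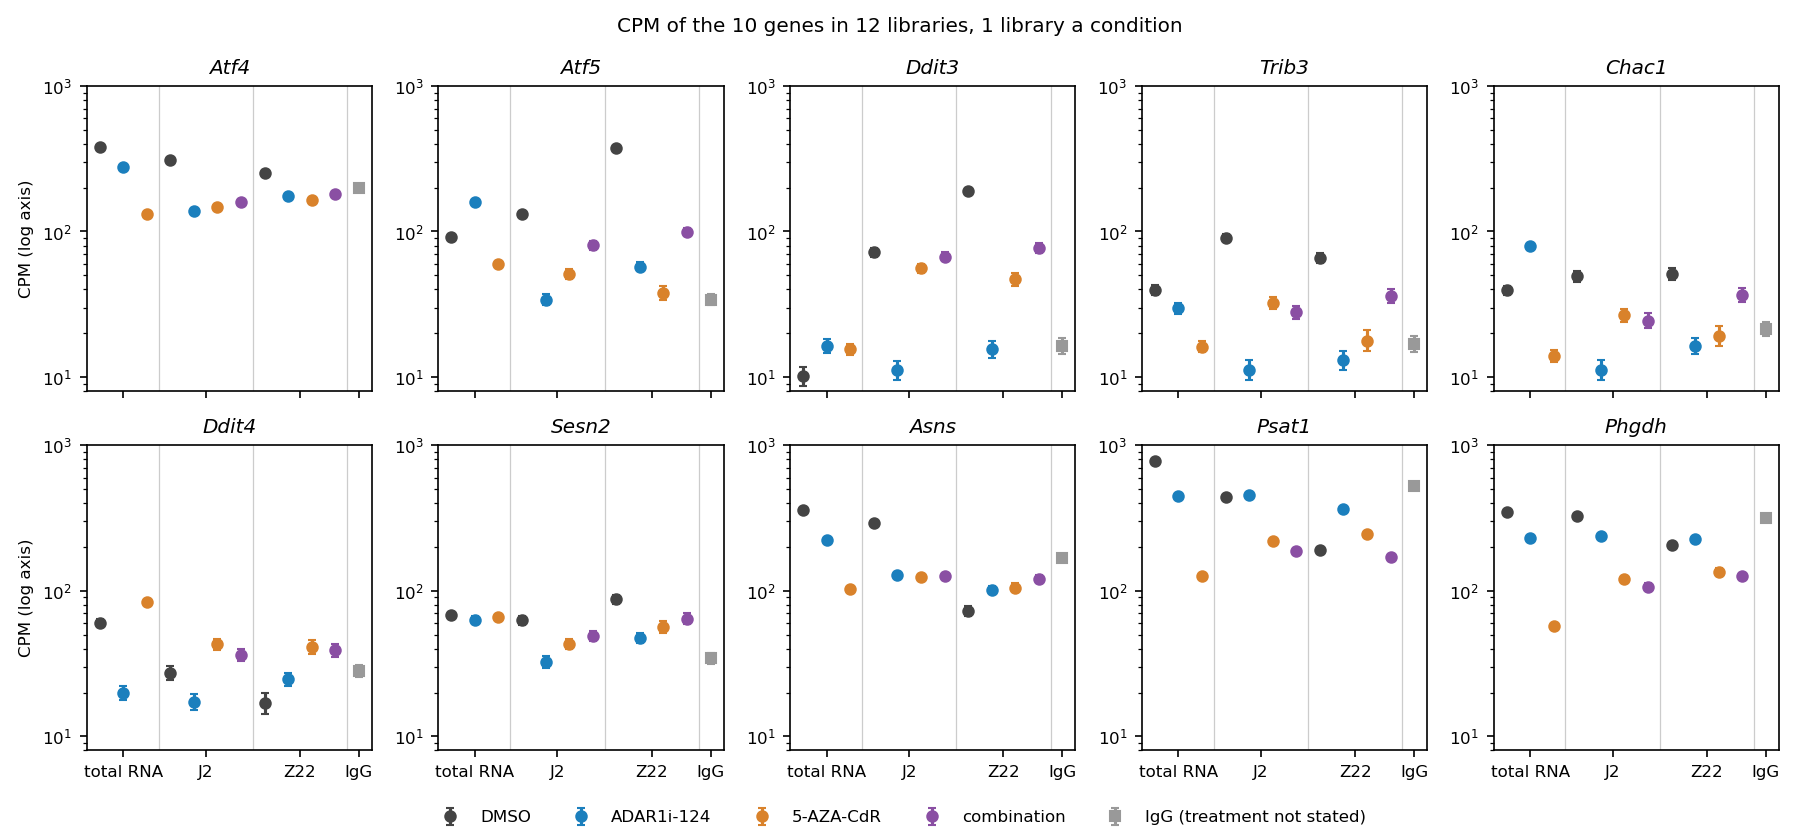
CPM of the 10 genes (log axis) in the 3 total RNA, 4 J2, 4 Z22 and 1 IgG libraries, with exact 95% counting intervals as bars; each point is 1 library. Psat1 and Phgdh are lowest in total RNA after 5-AZA-CdR (126 and 56.9 CPM), and Ddit3 is highest in Z22 under DMSO (189 CPM).

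In total RNA, the 3 transcription factor genes did not move together. Atf4 had 379.9 CPM under DMSO, 278 under ADAR1i-124 and 133 under 5-AZA-CdR, on 6465, 4896 and 4584 counts. Both treated libraries were thus below the DMSO library, with log2 changes of -0.45 (-0.51 to -0.40) and -1.52 (-1.57 to -1.46). Atf5, a stress-induced relative of Atf4, had 91.5, 159.7 and 59.6 CPM in the same order, higher under ADAR1i-124 by 0.80 (0.71 to 0.89) and lower under 5-AZA-CdR, at -0.62 (-0.72 to -0.52). Ddit3, which encodes the pro-apoptotic factor CHOP, was low throughout, at 10.1, 16.3 and 15.5 CPM on 172, 288 and 536 counts. It was higher in both treated libraries, by 0.67 (0.42 to 0.97) and 0.59 (0.37 to 0.87) on the log2 scale. Ddit3 shares 68 exon bases with Mars on the opposite strand, and Atf5 shares 82 with Nup62 and Il4i1. The sources used here do not state the strand setting of the counting. The counts of the total RNA combination library follow the other strand. Ddit3 and Atf5 had 100 and 103 counts there, and the other genes of the group had 0 to 3. The part of reads from the overlapping genes in the values was not tested.

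Among the stress regulators, Chac1 and Ddit4 went in opposite directions under each treatment. Chac1, which degrades glutathione, had 39.3 CPM under DMSO, 79.2 under ADAR1i-124 and 13.9 under 5-AZA-CdR. Its log2 changes were 1.0 (0.88 to 1.15) and -1.47 (-1.67 to -1.33), the highest of the 10 genes under ADAR1i-124. Ddit4, which encodes the mTORC1 inhibitor REDD1, had 59.9, 19.9 and 84.0 CPM, with changes of -1.57 (-1.77 to -1.42) and 0.49 (0.39 to 0.59). It was the lowest change of the group under ADAR1i-124 and one of the 2 positive changes under 5-AZA-CdR. Trib3, a pseudokinase that restrains AKT and ATF4, had 39.4, 29.6 and 16.2 CPM, lower with both treatments (-0.41 and -1.26). Sesn2, a leucine sensor upstream of mTORC1, stayed within 63.0 to 68.1 CPM, and both of its counting intervals include 0 (-0.23 to 0.01 and -0.15 to 0.06).

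The 3 enzyme genes were lower in both treated libraries, and under 5-AZA-CdR they had the 3 lowest changes of the group. Asns, which makes asparagine, had 359 CPM under DMSO, 222 under ADAR1i-124 and 102 under 5-AZA-CdR. Psat1 and Phgdh catalyse successive steps of serine synthesis from a glycolytic intermediate. Psat1 had 782, 448 and 126 CPM, and Phgdh had 346, 229 and 56.9 CPM. With ADAR1i-124 the log2 changes of Asns, Psat1 and Phgdh lay between -0.80 and -0.59. With 5-AZA-CdR they were -1.81, -2.63 (-2.68 to -2.58) and -2.59 (-2.68 to -2.53), which put Psat1 at a ratio of 0.161 and Phgdh at 0.165 of the DMSO library.

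Counted over the group, 1 of 10 genes (Chac1) was higher by 2-fold or more under ADAR1i-124, where 7.71% of the 13680 genes averaging at least 1 CPM were, and 1 (Ddit4) was lower by 2-fold or more, against 8.7% of all genes. Chac1 lay at the line, at a ratio of 2.01. The median change of the 10 genes was -0.43, beside -0.09 over all genes, and 7 of 10 lay below the median of all genes. With 5-AZA-CdR, no gene of the group was higher by 2-fold or more (17% of 14375 genes were) and 6 of 10 were lower by 2-fold or more, where 8.97% of all genes were. Those 6 were Atf4, Trib3, Chac1, Asns, Psat1 and Phgdh. The median change was -1.36 beside 0.06 over all genes. Both comparisons share the DMSO library, and the treatments differed in duration as well as in agent.

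**Figure D2:**
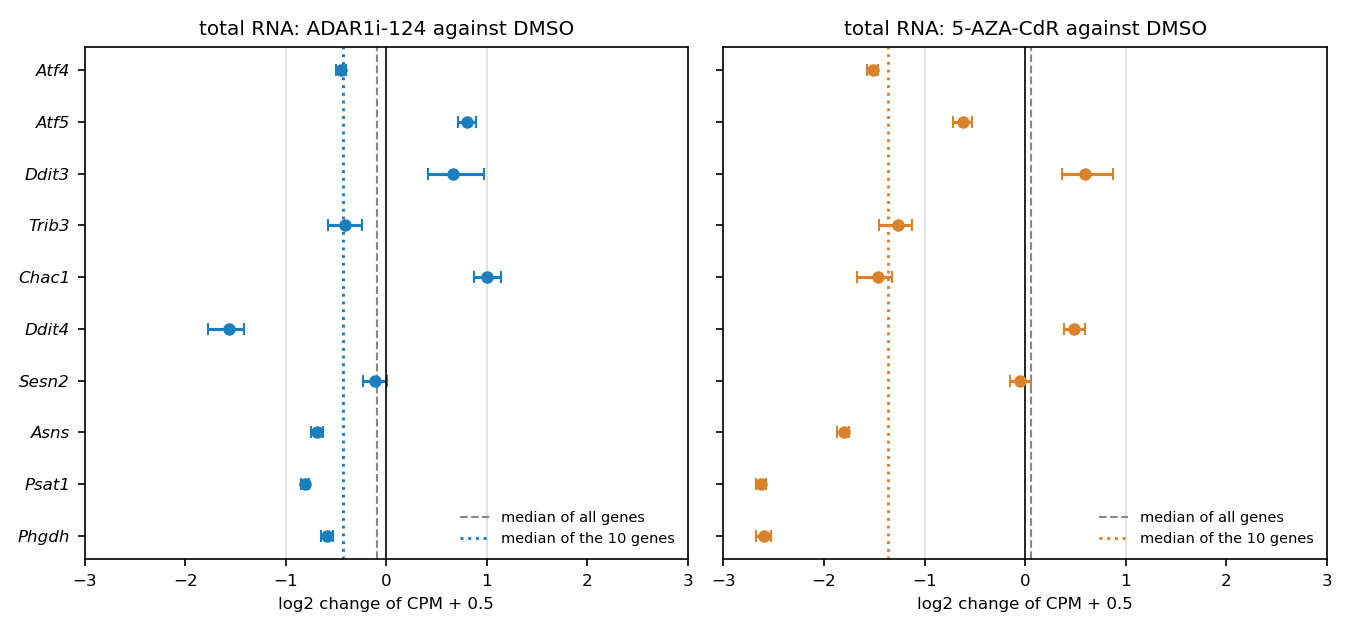
Log2 change of each gene in total RNA for ADAR1i-124 (left) and 5-AZA-CdR (right) against the same DMSO library, with 95% counting intervals as bars; the dashed line is the median of all genes and the dotted line that of the 10 genes. On the right, 6 genes lie below -1 and the medians are -1.36 and 0.06, whereas on the left the genes scatter around -0.43.

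The 9 lists of related genes placed these changes within the pathway. Of the 4 eIF2α kinase genes, Eif2ak2 (PKR) had 268 CPM under DMSO and 49.6 under ADAR1i-124, a log2 change of -2.42 (-2.54 to -2.33), and 229 CPM under 5-AZA-CdR, a change of -0.23. The PERK gene Eif2ak3 changed by -0.34 and 0.41, the HRI gene Eif2ak1 by 0.31 and 0.02, and the GCN2 gene Eif2ak4 by -0.03 and 0.01, so that Eif2ak2 was the 1 kinase gene of 4 past the 2-fold line, below which 8.7% of all genes lay under ADAR1i-124. In the list of eIF2, eIF2B and phosphatase subunits, 1 of 10 was higher by 2-fold or more under ADAR1i-124 (7.71% of all genes were) and 2 lower by 2-fold or more under 5-AZA-CdR (8.97%). Its medians were -0.03 and -0.84. The gene higher under ADAR1i-124 was Ppp1r15a (GADD34), which recruits the phosphatase that reverses eIF2α phosphorylation and had 35.2, 105.5 and 39.6 CPM, a change of 1.57 under ADAR1i-124. Eif2s2 and Eif2s3x, which encode subunits of eIF2, changed by -1.57 and -1.04 after 5-AZA-CdR.

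A further list held ATF and C/EBP family genes and other factors linked to ATF4. Of its 9 genes, 2 were higher by 2-fold or more under each treatment, beside 7.71% of all genes for ADAR1i-124 and 17% for 5-AZA-CdR. By as much, 0 were lower, beside 8.7% and 8.97%. The list's medians were 0.09 and 0.22. Atf3, a stress-induced repressor, had 8.64, 38.6 and 10.2 CPM, with changes of 2.10 and 0.22. Cebpb was higher with both (2.02 and 2.14), and Cebpd under 5-AZA-CdR at 2.48 but not under ADAR1i-124, where the change was -0.34. Among other targets of ATF4 and CHOP, 1 of 10 genes past the minimum passed 2-fold upward (7.71% of all genes did) and 1 downward (8.7%) under ADAR1i-124, and 4 of 11 (17%) and 1 of 11 (8.97%) did under 5-AZA-CdR. Vegfa, the angiogenic factor, and Ero1l, an oxidase of the endoplasmic reticulum, were higher under 5-AZA-CdR by 2.0 and 1.87, and Vldlr, a lipoprotein receptor, was lower under ADAR1i-124 at -2.04. The list's median was 0.75 under 5-AZA-CdR, so its sign differs from that of the 10 genes.

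Genes of amino acid supply were mostly lower. Of the amino acid and one-carbon enzymes, 5 of 12 were lower by 2-fold or more under ADAR1i-124 (8.7% of all genes were) and 10 of 13 under 5-AZA-CdR (8.97%), with medians of -0.87 and -1.51. Under ADAR1i-124 0 were higher by 2-fold or more (7.71%) and under 5-AZA-CdR 1 was (17%), the transsulfuration enzyme gene Cbs, which is named here after its values were seen and had 1 count under DMSO and 100 under 5-AZA-CdR (95% interval of the log2 ratio, 3.11 to 10.9). With ADAR1i-124, the mitochondrial folate enzyme gene Aldh1l2 went from 175 to 21.7 CPM (-2.98) and the alanine transaminase gene Gpt2 from 127 to 21.9 CPM (-2.51). With 5-AZA-CdR, Shmt2 and Mthfd2, which act in mitochondrial one-carbon metabolism, had changes of -2.67 and -2.41. Amino acid transporters had medians of -0.41 and -1.28. Of these 9 genes, 0 were lower by 2-fold or more under ADAR1i-124 (8.7% of all genes were). After 5-AZA-CdR 5 were (8.97%), among them Slc7a5 (-2.29) and Slc1a4 (-2.10). The cystine transporter gene Slc7a11 was the 1 gene of the 9 higher by 2-fold or more under each treatment (7.71% and 17% of all genes were), with 204 CPM under DMSO, 686 under ADAR1i-124 and 436 under 5-AZA-CdR, or 1.75 and 1.09 on the log2 scale. All 13 cytosolic aminoacyl-tRNA synthetase genes had a negative change under 5-AZA-CdR, the lowest at -1.85. Of them, 9 were lower by 2-fold or more (8.97% of all genes were), among them Lars, Mars (-1.64), Gars (-1.62) and Yars (-1.50). With ADAR1i-124, 12 of the 13 had a negative change and 1 was lower by 2-fold or more, where 8.7% of all genes were.

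The unfolded protein response genes linked to XBP1 and ATF6, which belong to other branches of endoplasmic reticulum stress, had medians of -0.36 under ADAR1i-124 and 0.00 under 5-AZA-CdR. Of these 15 genes, 1 was lower by 2-fold or more under ADAR1i-124, Hsp90b1 (-1.10), where 8.7% of all genes were. Under 5-AZA-CdR 0 were higher (17%) or lower (8.97%) by as much. Dnajb9, a cochaperone, changed by 0.97 and 0.46. Of the 4 relatives of the stress regulators past the minimum, 2 were lower by 2-fold or more under ADAR1i-124 (8.7% of all genes were), and 2 were higher (17%) and 1 lower (8.97%) after 5-AZA-CdR. With ADAR1i-124, Sesn1 and Sesn3 changed by -1.75 and -1.49 beside -0.11 for Sesn2, and Trib1 and Trib2 by 0.42 and -0.27 beside -0.41 for Trib3. With 5-AZA-CdR the changes were -1.28 for Sesn1, 0.57 for Sesn3, 1.31 for Trib1 and 1.91 for Trib2, beside -1.26 for Trib3.

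**Figure D3:**
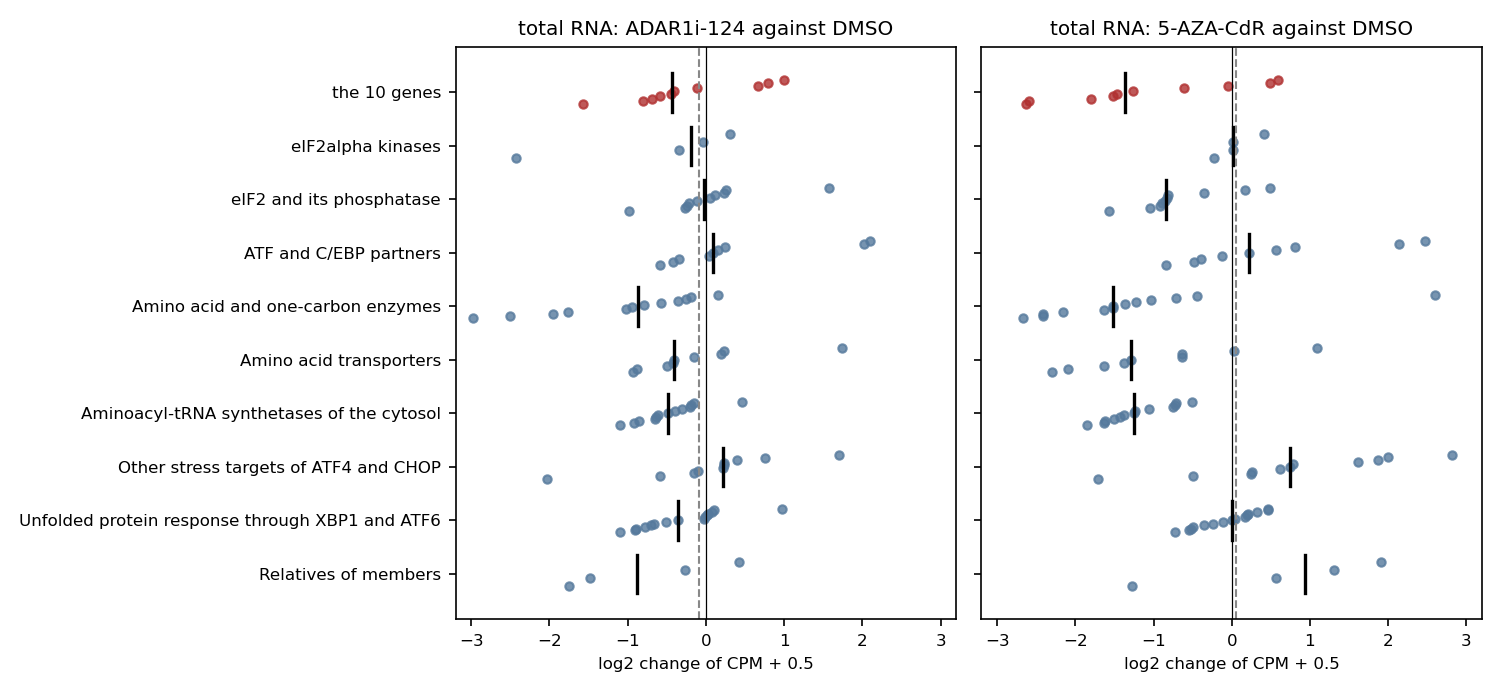
Log2 change in total RNA of the 10 genes (red) and of 9 lists of related genes (blue), 1 point a gene averaging at least 1 CPM; black bars are medians and the dashed line is the median of all genes. With 5-AZA-CdR the enzymes, transporters and synthetases have medians of -1.51, -1.28 and -1.25, while the other stress targets have 0.75.

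In the J2 precipitates, which hold RNA recovered with the antibody to double strands, 9 of the 10 genes were lower under ADAR1i-124 than under DMSO. J2 libraries held Atf4 at 309 CPM under DMSO, 138 under ADAR1i-124, 148 under 5-AZA-CdR and 160.3 under the combination. For Atf5 they held 131, 34.0, 50.9 and 80.2 CPM, so that DMSO was again the highest and ADAR1i-124 the lowest. Ddit3 had 71.9 CPM under DMSO, 11.1 under ADAR1i-124, 55.9 under 5-AZA-CdR and 66.9 under the combination. ADAR1i-124 alone was low, at a change of -2.64 (-2.95 to -2.45), whereas 5-AZA-CdR (-0.36) and the combination (-0.10, -0.25 to 0.04) were close to DMSO.

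Trib3 had 90.9, 11.2, 32.3 and 27.8 CPM in these J2 libraries, and its change of -2.97 under ADAR1i-124 was the lowest of the 10 genes. Chac1 had 49.1, 11.3, 26.5 and 24.4 CPM. In total RNA Chac1 had been higher under ADAR1i-124 (1.0), and in J2 it was lower (-2.08, -2.38 to -1.87); Atf5 likewise had changes of 0.80 and -1.94, and Ddit3 of 0.67 and -2.64. Psat1 had 442 CPM under DMSO and 458 under ADAR1i-124, 0.05 on the log2 scale by library totals and -0.03 when the 20 highest genes were left out of the totals, and it had 220.3 and 187.7 CPM under 5-AZA-CdR and the combination. Ddit4 was the only one of the 10 higher in J2 under 5-AZA-CdR and under the combination, at 42.8 and 36.2 CPM against 27.4 under DMSO. Sesn2, Asns and Phgdh had changes of -0.95, -1.17 and -0.44 under ADAR1i-124.

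None of the 10 genes was higher by 2-fold or more in J2 under ADAR1i-124 (7.36% of all genes were) and 6 were lower by 2-fold or more (10.8%). With 5-AZA-CdR the numbers were 0 (8.61%) and 6 (6.01%), and under the combination 0 (8.21%) and 4 (3.88%), or 6 under each of the other scalings. The medians were -1.17, -1.03 and -0.97, where the medians of all genes were 0.00, 0.06 and 0.11. All 3 comparisons rest on the same J2 DMSO library.

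Z22 precipitates gave the highest values of Atf5 and Ddit3 in the series, both in the DMSO library that stood apart. With Z22, Atf5 had 374 CPM under DMSO, 57.4 under ADAR1i-124, 37.8 under 5-AZA-CdR and 98.9 under the combination. Ddit3 had 189, 15.5, 46.8 and 77.0 CPM in that order, on 1648 counts in the DMSO library. Both genes were lower in every treated Z22 library, Ddit3 by log2 changes of -3.56 (-3.81 to -3.40), -2.00 and -1.29, and Atf5 by -2.69, -3.29 and -1.91. Trib3 had 65.5, 13.0, 17.8 and 36.3 CPM, and Chac1 50.9, 16.4, 19.2 and 36.6 CPM, which again placed DMSO highest. The counting intervals of Chac1 overlapped between ADAR1i-124 (14.4 to 18.6) and 5-AZA-CdR (16.3 to 22.5), and the order of these 2 libraries turned under TMM.

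Atf4 had 252, 175, 164 and 181 CPM with Z22, lower in all 3 treated libraries, by log2 changes of -0.53, -0.62 and -0.47 by library totals. They were -1.20, -1.59 and -1.20 under TMM, edgeR's scaling that trims genes with large changes, and -1.39, -1.69 and -1.33 under DESeq2's median-of-ratios scaling. Asns, by library totals, had 72.5, 102, 105 and 120.5 CPM and was thus higher in the 3 treated libraries. Psat1 had 191, 367, 245 and 169.7 CPM, higher with each single treatment and lower under the combination (-0.17). Phgdh had 206, 226, 135 and 126 CPM, with changes of 0.13, -0.61 and -0.71. These directions depend on the scaling. By totals, the median of all genes was itself higher by 0.81 in the ADAR1i-124 library, by 1.06 after 5-AZA-CdR and by 0.82 in the combination library than in the DMSO library, in which Gm42418 took 34.9% of the counts. With ADAR1i-124, the changes of Asns, Phgdh and Ddit4 (0.49, 0.13 and 0.54) became -0.19, -0.55 and -0.12 under TMM. With 5-AZA-CdR, the changes of Asns and Psat1 (0.53 and 0.36) became -0.43 and -0.61 under TMM. For the combination, the change of Asns (0.73) became -0.13 under median-of-ratios. Ddit4 after 5-AZA-CdR, at 41.3 against 16.8 CPM, had a positive change under all scalings.

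By library totals, none of the 10 genes was higher by 2-fold or more under ADAR1i-124 in Z22 (42.9% of all genes were) and 4 were lower by 2-fold or more (5.12%). With 5-AZA-CdR there were 1 (52.1%) and 4 (4.09%), and under the combination 1 (43.4%) and 2 (5.03%). These numbers depended on the scaling. Under TMM, 0 genes were higher in all 3 comparisons (23.2%, 24.3% and 23.2% of all genes were), and 6, 7 and 7 were lower (13.8%, 16.2% and 14.7%). Under median-of-ratios 6, 7 and 8 were lower (17.8%, 18.5% and 17.7%), and without the 20 highest genes 5, 7 and 4 (10.2%, 8.82% and 8.92%). Relative to the median of all genes, the medians of the 10 genes were -1.51, -1.69 and -1.29, and 9 of the 10 lay below it in each comparison.

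**Figure D4:**
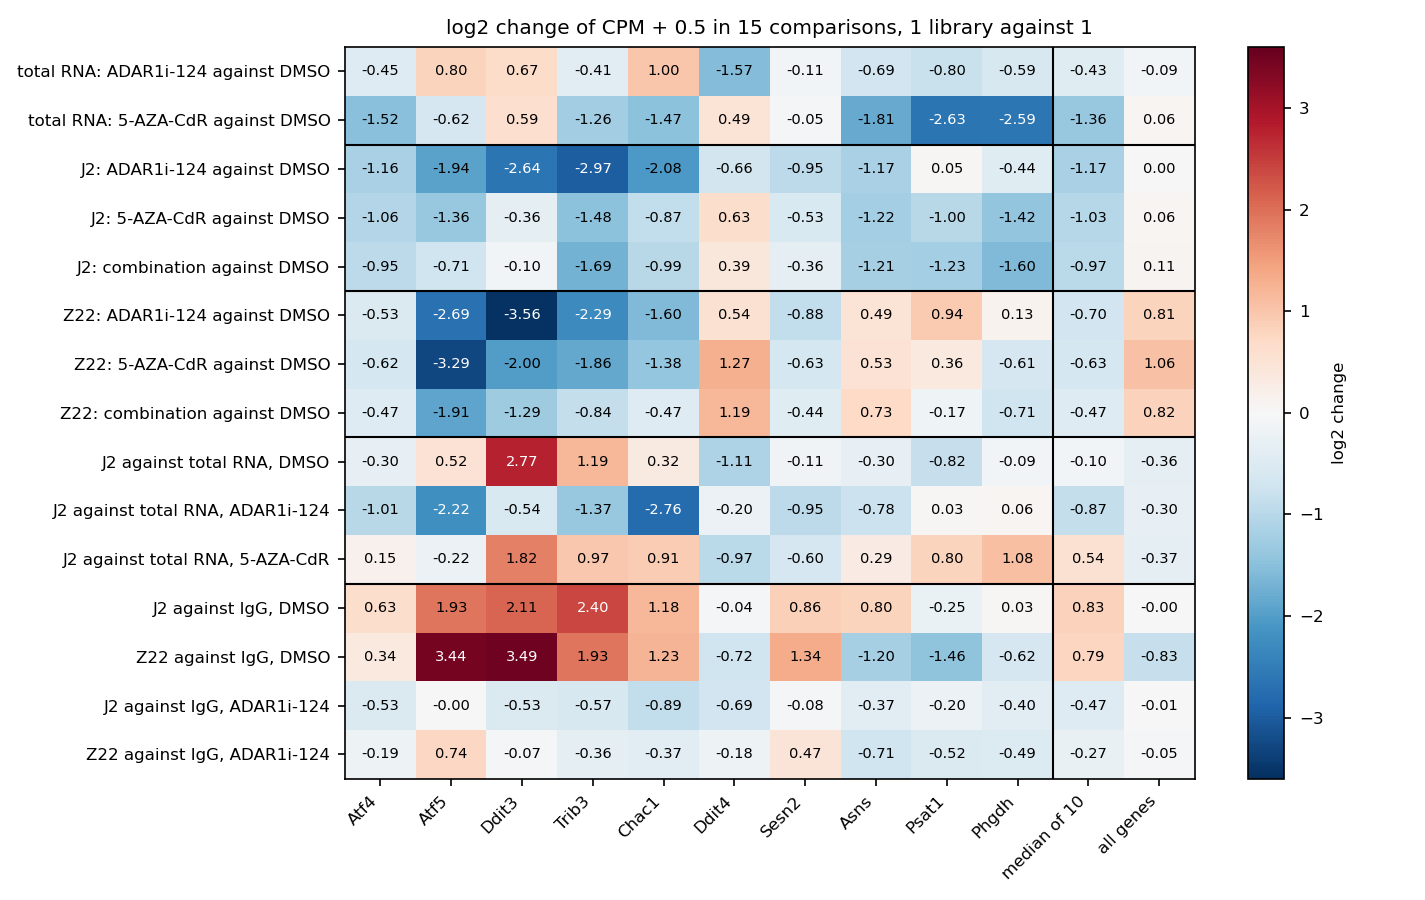
Log2 changes of the 10 genes (columns) in 15 comparisons (rows), each 1 library against 1, with the median of the 10 genes and of all genes at the right; blue is lower and red higher in the first-named library. Atf5, Ddit3, Trib3 and Chac1 are blue in the J2 and Z22 rows for ADAR1i-124 and red in the rows of DMSO precipitates against IgG. Both sets of rows use the same J2 and Z22 DMSO libraries, so they are not separate observations.

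Precipitated and total RNA of the same treatment were also set side by side. In DMSO cells, 2 of the 10 genes were higher by 2-fold or more in J2 than in total RNA (5.55% of all genes were) and 1 lower by 2-fold or more (17.3%), or 0 lower under each of the other scalings. Ddit3 had 71.9 CPM in J2 against 10.1 in total RNA, a ratio of 7.11 and a log2 difference of 2.77 (2.59 to 3.07). Trib3 had 90.9 against 39.4 CPM (1.19), and Ddit4 27.4 against 59.9 CPM (-1.11). The median difference was -0.10 by library totals and 0.18 to 0.33 under the other scalings, and the directions of Atf4, Sesn2, Asns and Phgdh flipped under at least one of them. Relative to the median of all genes, which was -0.36, 8 of the 10 were higher.

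With ADAR1i-124 the same ratio was different for several genes. None was higher by 2-fold or more in J2 than in total RNA (5.04% of all genes were), and 4 were lower by 2-fold or more (14.7%), namely Atf4 (-1.01), Atf5 (-2.22), Trib3 (-1.37) and Chac1 (-2.76). Under each of the other scalings 3 were, without Atf4. Chac1 had 79.2 CPM in total RNA and 11.3 in J2. With 5-AZA-CdR, Ddit3 (1.82) and Phgdh (1.08) were higher by 2-fold or more in J2, or 2 of 10 genes where 4.94% of all genes were, and 5 under TMM, where 7.93% were, and 0 were lower by 2-fold or more (18.9%). The median differences of the 10 genes were -0.87 under ADAR1i-124 and 0.54 under 5-AZA-CdR, where those of all genes were -0.30 and -0.37. RNase treatment before precipitation was not part of the total RNA libraries, so digestion and antibody cannot be told apart here.

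Against the IgG library, the DMSO precipitates held more of Atf4, Atf5, Ddit3, Trib3, Chac1 and Sesn2, by library totals, while Ddit4 had 27.4 CPM in J2 and 16.8 in Z22 beside 28.1 in IgG. IgG had 34.1 CPM of Atf5, 16.3 of Ddit3, 16.8 of Trib3 and 21.3 of Chac1. J2 under DMSO was above it by 1.93, 2.11, 2.40 and 1.18 on the log2 scale, which are the 4 genes higher by 2-fold or more (13.5% of all genes were), and 0 were lower by 2-fold or more (8.96%). Z22 under DMSO was above IgG by 3.44, 3.49, 1.93 and 1.23 for the same genes and by 1.34 for Sesn2, so that 5 were higher by 2-fold or more (11.3%). Asns and Psat1 were the 2 genes lower by 2-fold or more in Z22 (45.3%), at -1.20 and -1.46. Under TMM they differed by -0.57 and -0.83, under median-of-ratios by -0.39 and -0.65, and without the 20 highest genes by -0.76 and -1.02, so that Psat1 passed the line in the last of these and Asns in none. Ddit4 and Phgdh differed from IgG in directions that flipped with the scaling, for both antibodies.

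The ADAR1i-124 precipitates were also set beside IgG. None of the 10 genes was higher or lower by 2-fold or more in J2 under ADAR1i-124 than in IgG (5.62% and 4.46% of all genes were), nor in Z22 under ADAR1i-124 (7.16% and 1.84%). In J2, all 10 values were below those of IgG by library totals, TMM and median-of-ratios and 9 were without the 20 highest genes, and the counting intervals of Atf5 (-0.18 to 0.18) and Sesn2 (-0.27 to 0.10) include 0. The median of all genes was -0.01. In Z22, 8 of 10 were lower, where the median of all genes was -0.05. In Z22 the differences ran from -0.71 for Asns to 0.74 for Atf5, and Ddit3 had 15.5 CPM beside 16.3 in IgG. In J2, Chac1 differed most, at -0.89. Medians of the 10 genes against IgG were -0.47 for J2 and -0.27 for Z22 under ADAR1i-124, 0.32 and -0.04 under 5-AZA-CdR, and 0.27 and 0.62 under the combination. Because the treatment behind the IgG library is not stated, antibody and treatment cannot be told apart in any of these comparisons.

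The combination precipitates were compared with each single treatment. In J2, none of the 10 genes was higher (1.44% of all genes were) or lower (0.642%) by 2-fold or more under the combination than under 5-AZA-CdR. Against ADAR1i-124, 5 were higher by 2-fold or more (14.3%) and 2 lower (5.63%), and under TMM 3 were higher (12.3%). Those higher by totals were Atf5, Ddit3, Trib3, Chac1 and Ddit4, led by Ddit3 at 2.54, and those lower were Psat1 (-1.29) and Phgdh (-1.17). In Z22, Atf5 (1.38) and Trib3 (1.01) were higher by 2-fold or more under the combination than under 5-AZA-CdR (2.29% of all genes were), and 0 were lower by 2-fold or more (7.11%). Against ADAR1i-124 in Z22, Ddit3, Trib3 and Chac1 were higher by 2-fold or more (9.91%) and Psat1 lower (6.29%). For Ddit3 the 3 treated levels in J2 were thus 11.1, 55.9 and 66.9 CPM, and in Z22 15.5, 46.8 and 77.0 CPM, the combination being the highest of the 3 in both.

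Over the 12 libraries the 10 genes formed no single pattern. Sesn2 varied least, with a ratio of 2.71 between its highest and lowest library, and Atf4 was next at 2.87. Ddit3 varied most at 18.7, followed by Atf5 at 11. Both ratios rest on the Z22 DMSO library: without it they were 7.61 and 4.70, Trib3 had the highest ratio at 8.12 and Sesn2 still the lowest at 2.10. Pearson's r of log2(CPM + 0.5) was 0.90 between Psat1 and Phgdh, and 0.81 for Sesn2 with Atf5, Chac1 with Atf5 and Chac1 with Trib3. It was -0.57 between Psat1 and Ddit3 and -0.55 between Phgdh and Ddit4. With the mean pattern of the group, which contains each gene itself, Trib3 (0.93), Chac1 (0.90) and Atf4 (0.89) had the highest r and Ddit4 the lowest (-0.15). Asns had 0.52, and 0.85 when the Z22 DMSO library was left out. These values describe 12 libraries of 1 cell line that share treatments and antibodies and differ in depth, and they carry no test.

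Among 8874 other genes averaging at least 10 CPM, those most like the mean of the group were Wars (r of 0.94), Zfp110 (0.87), Slc3a2 (0.87), Slc6a9 (0.84) and Mknk1 (0.84). Most like Atf4 were Slc1a4 (0.95), Aldh18a1 (0.92), Iars (0.92), Fads3 (0.90) and Mthfd2 (0.87). Without the Z22 DMSO library these 10 values ranged from 0.82 for Mknk1 to 0.95 for Slc1a4. Of the group itself, Chac1 (0.79), Asns (0.71), Phgdh (0.71) and Trib3 (0.68) were nearest to Atf4, and Ddit3 (0.03) and Ddit4 (-0.16) were far from it. This order changed without the Z22 DMSO library, where Asns led at 0.94, followed by Chac1 (0.78), Phgdh (0.71), Psat1 (0.71) and Trib3 (0.67), and Ddit3 and Ddit4 had -0.13 and -0.07.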

How the data were processed

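The authors aligned their paired reads to the mouse genome (mm10 per the labels) using STAR within snakePipes, and deposited raw counts per gene, without normalization. The counting tool and its strand setting are not given in the sources used here. All 13 columns of the deposited table matched a label, 0 columns were left unused, and the total RNA combination library was kept out of every comparison. Identifiers without their version were matched to GENCODE M21, which named 54409 of 54532 genes and left 123 unnamed. Where genes shared a symbol, the one with the most counts kept it. Exon lengths are the union of annotated exons.

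Counts were divided by the library total. With 1 library a condition no count test was run. Genes were counted past a 2-fold line among those averaging at least 1 CPM in the 2 libraries compared. The fold and interval calculations were checked on simulated data. Alternatives were scaling by edgeR's TMM factors, by DESeq2's median-of-ratios factors and by totals without the 20 highest genes, pseudocounts of 0.1 and 2 CPM, lines of 1.5-fold and 4-fold, and minimums of 10 CPM and none.

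The 10 genes and the gene lists were chosen with earlier results of these data known. The text names all 10 genes, at most 4 genes of each list by largest change averaging at least 10 CPM, and the 5 genes most like the group and Atf4. Comparisons of treated precipitates with IgG and total RNA, of the combination with single treatments, and of scalings for the precipitate counts, and ranges and correlations without the Z22 DMSO library, were added after seeing the data. Zero-count Ddit3 entry apart, no gene was left out. Python 3.11.15, numpy 2.4.6, pandas 2.3.3, scipy 1.17.1, matplotlib 3.10.9, R 4.3.3, edgeR 4.0.16 and DESeq2 1.42.0 were used.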

Additional observations from a re-analysis of the deposited data

Results flagged for a closer look

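Ddit3 had 80.3 CPM in the total RNA library of the combination (100 of 1245894 counts), above the 10.1 CPM of the DMSO library, in a column that no comparison used. It was singled out because it is a signal above the control in data outside the comparisons. That library's counts follow the strand opposite to the gene, and Mars, which had 3651 counts in total RNA with DMSO, overlaps Ddit3's exons by 68 bases on the opposite strand. Atf5, which overlaps Nup62 and Il4i1 by 82 bases on the opposite strand, had 103 counts there (82.7 CPM, against 91.5 with DMSO), and the other 8 genes of the group had 0 to 3 counts. The part of the overlapping genes in these counts was not tested.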

How the results depend on the processing

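Median changes of the group in total RNA stayed between -0.43 and -0.36 for ADAR1i-124 and between -1.43 and -1.28 for 5-AZA-CdR under every scaling and pseudocount tried. Precipitate medians depended more on scaling. In Z22 against DMSO, under TMM, median-of-ratios and totals without the 20 highest genes in turn, they were -1.38, -1.56 and -1.15 with ADAR1i-124, -1.59, -1.69 and -1.14 with 5-AZA-CdR, and -1.19, -1.33 and -0.85 with the combination, and Z22 against IgG gave 1.42, 1.6 and 1.23. By library totals these Z22 medians were -0.70, -0.63 and -0.47 for the treatments in that order, and 0.79 against IgG. J2 against total RNA with DMSO, at -0.10 by totals, reversed to 0.18, 0.27 and 0.33. Without the 20 highest genes, J2 with ADAR1i-124 gave -1.25 and J2 against IgG 0.95. Pseudocounts changed none of these directions. The cause of each shift beyond the scaling itself was not tested. At a 4-fold line the numbers of genes higher and lower in total RNA were 0 and 0 with ADAR1i-124, and 2 were lower with 5-AZA-CdR. At a 1.5-fold line they were 3 and 4 with ADAR1i-124, and 1 and 7 with 5-AZA-CdR. The shares of all genes past these lines were not computed, so these numbers have no background beside them. No paired analysis was run. Treatment and DMSO have 1 library each within a fraction, and neither pairs over fractions nor Z22 against J2 with the treatments as pairs were used. No replicate could be left out with 1 library a condition, so depth bounds the counting error alone and the spread between cultures is unknown.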
